A study of Mus musculus with 18 samples.

Results

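The comparison described here sets cells that lacked the Msx1 reporter at day 8 of embryoid body differentiation against cultured mouse embryonic stem (ES) cells, by RNA sequencing. Its members were chosen by label: the 2 libraries of day 8 Msx1-negative cells and the 2 libraries labelled ES, 4 libraries among the 10 of the same count table and the 18 samples of the series. Day 8 Msx1-negative cells came from a derivative of an Msx1-tdTomato mouse ES cell line with inducible overexpression of the homeobox gene Dlx2. They had been grown as hanging-drop embryoid bodies with 1 µg/ml doxycycline and sorted by flow cytometry as negative for the Msx1 reporter. The libraries labelled ES are described as wild-type, untreated cells of the Msx1-tdTomato line, grown in serum with leukaemia inhibitory factor (LIF), and are not described as sorted. By the labels, day, doxycycline, genotype, embryoid body culture and sorting changed together and cannot be told apart. Of 54114 gene symbols in the table, 22504 had enough counts to be tested, over all 10 libraries.

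Mouse ES cells in serum and LIF are kept in a naive state, in which LIF signals through its receptor and gp130 to the transcription factor STAT3, and STAT3 in turn maintains Klf4 and induces its own inhibitor Socs3. On leaving this state, cells pass through a formative stage that resembles the epiblast at implantation, with Otx2, Fgf5 and Zic2 switched on while Pou5f1 and Sox2 are still made. Embryoid bodies also form an outer layer of primitive endoderm, and Msx1 marks, among other cells, cranial neural crest and its mesenchyme, in which Dlx genes pattern the jaw.

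Library totals lay between 53797597 and 107770730 counts over the table, at 63489887 and 56048918 in the Msx1-negative pair and 54884142 and 53797597 in the ES-labelled pair. The labels do not say that replicates came from separate cultures, so p-values measure the spread between these libraries, which may be technical. Msx1, the gene behind the sort, had 1.90 and 1.02 CPM (counts scaled to the library total) in Msx1-negative, 40.9 and 46.8 CPM in Msx1-positive and 0.212 and 0.627 CPM in ES-labelled libraries. Dlx2 had 269 and 272 CPM in Msx1-negative cells, 1140 and 1270 CPM in Msx1-positive cells, and 219 and 222 CPM in the libraries labelled ES. In the same ES-labelled libraries, described as wild-type and untreated, the neighbouring gene Dlx1 stood at 0.0772 and 0.0784 CPM. Why Dlx2 lay so far above Dlx1 in them was not tested. Whether the ES-labelled cells carry the Dlx2 construct was not tested, and the counts do not separate introduced from endogenous Dlx2. Dlx2 was accordingly only 1.23-fold higher in Msx1-negative than in ES-labelled libraries (log2 0.30 ± 0.076 SE, adjusted p = 0.00646, edgeR quasi-likelihood test).

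At day 8, Msx1-negative cells differed from ES-labelled cells in many genes but by small amounts. Among all genes tested, 4280 were called higher (19%) and 3271 lower (14.5%) at an adjusted p below 0.05, and 14953 were not called, so that 33.6% changed in either direction. With an absolute log2 change of at least 1 also required, 1879 genes were higher (8.35%) and 573 lower (2.55%). Among 9404 genes averaging at least 10 CPM over the Msx1-negative and ES-labelled libraries, the median absolute log2 change was 0.195. Over the same genes it was 0.5 for day 8 Msx1-positive and 0.352 for day 16 Msx1-negative cells, each against the same ES-labelled libraries. Genes high only in those other cells are left out of these medians by that choice. On the first principal component, which held 65.9% of the variance, the Msx1-negative libraries lay at -85.84 and -86.72, the Msx1-positive libraries at 75.28 and 78.62, and the ES-labelled libraries at -145.3 and -147.9.

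Most of the genes that rose by a log2 change of at least 1 were genes of low level. Of the 1879, 1346 averaged under 1 CPM in ES-labelled libraries, and 445 reached 5 CPM and 68 reached 50 CPM in Msx1-negative cells. Together they held 1.85% of all CPM in Msx1-negative and 0.64% in ES-labelled libraries. The 573 that fell by as much held 0.493% in Msx1-negative and 1.27% in ES-labelled libraries. In RNA from a whole sorted fraction, a change in the number of cells that express a gene and a change in the RNA of each cell cannot be told apart, and this holds for every value that follows.

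**Figure D1:**
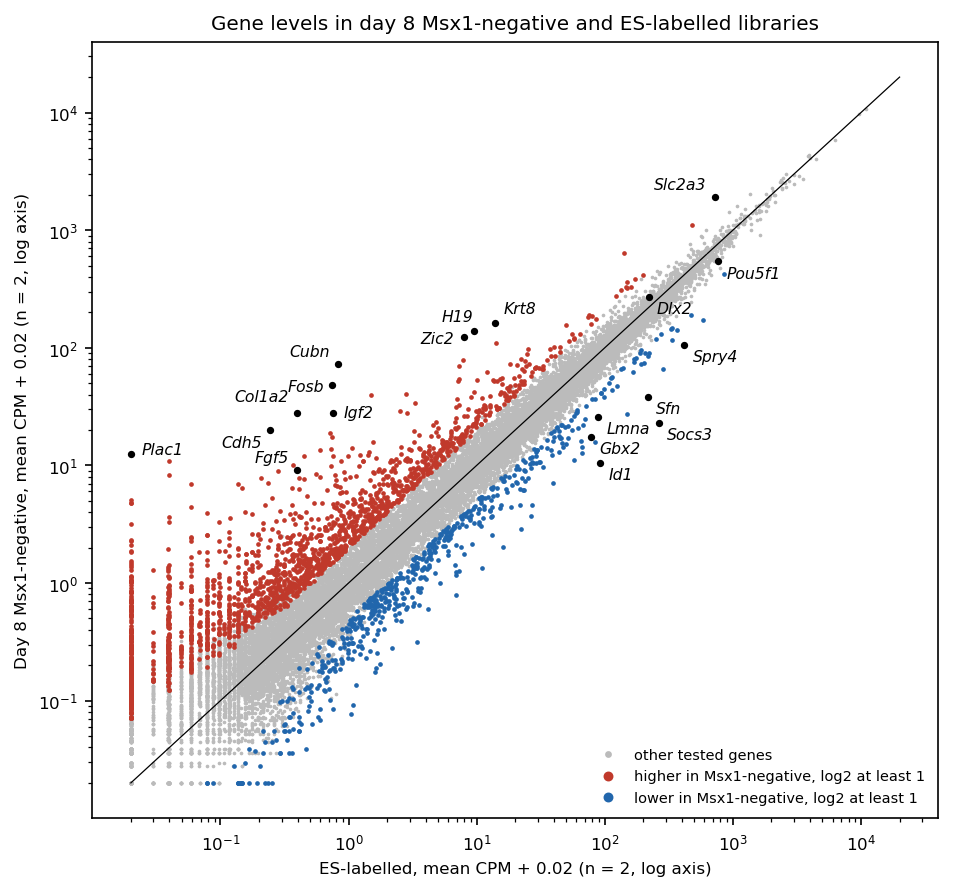
Mean CPM of each of the 22504 tested genes in day 8 Msx1-negative cells (vertical axis) and ES-labelled libraries (horizontal axis), 2 libraries each, on log axes with a small offset added so that 0 can be drawn; the line marks equality. Red points are the 1879 genes higher and blue points the 573 genes lower by a log2 change of at least 1, and most red points lie at the left, under 1 CPM in ES-labelled libraries.

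The core pluripotency factors were still expressed at day 8. Pou5f1, which encodes the pluripotency factor OCT4 (chromosome 17, 35506018 to 35510772, plus strand, GRCm38), had 544 and 540 CPM in Msx1-negative cells, against 750 and 773 CPM in ES-labelled libraries. Its 2 groups did not overlap, and it fell 1.40-fold (log2 -0.49 ± 0.052 SE, adjusted p = 1.14e-06). Sox2, the partner of OCT4 on DNA, had 560 and 547 CPM in Msx1-negative against 646 and 656 CPM in ES-labelled libraries, a log2 change of -0.23 ± 0.058 (SE). Nanog, another factor of the core network, went the other way, with 434 and 415 CPM in Msx1-negative and 332 and 364 CPM in ES-labelled libraries (log2 0.29 ± 0.07 SE). Both of these calls are slim, since Sox2 had an adjusted p of 0.0607 without Msx1-negative replicate 2 and Nanog one of 0.0658 without ES-labelled replicate 1.

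Of 16 core pluripotency genes, 2 were higher, 6 lower and 8 not called, none of them by a log2 change of 1, with a median of -0.16 beside 0.03 over all genes tested. The furthest lower was Tdgf1, which encodes the NODAL co-receptor Cripto, with 914 CPM in both Msx1-negative libraries and 1600 and 1630 CPM in ES-labelled libraries (log2 -0.82 ± 0.051 SE, adjusted p = 1.48e-09). Sall4 and Dppa4 were not called, at log2 changes of -0.04 and 0. Against the Msx1-positive fraction of the same day, 15 of the 16 were higher in Msx1-negative cells, 0 lower and 1 not called. That difference was called for 24.1% of all genes tested as higher and for 29.8% as lower, or 53.8% in all; without TMM scaling the 5415 higher and 6702 lower calls became 4057 and 7981. Pou5f1 had 163 and 172 CPM in the Msx1-positive fraction, and the log2 difference, Msx1-negative minus Msx1-positive, was 1.69 (adjusted p = 3.47e-14).

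Naive pluripotency genes moved apart from one another. Of 20, 7 rose, 11 fell and 2 were not called, with a median log2 change of -0.24. Klf4, a naive factor directly downstream of STAT3, had 185 and 194 CPM in Msx1-negative against 479 and 462 CPM in ES-labelled libraries and fell 2.48-fold (log2 -1.31 ± 0.058 SE, adjusted p = 1.91e-11). Its relative Klf2 had 267 and 278 CPM in Msx1-negative against 133 and 114 CPM in ES-labelled libraries and rose 2.21-fold (log2 1.14 ± 0.094 SE, adjusted p = 7.15e-07). For neither gene did the groups overlap, and these 2 Krüppel-like factors, which are known to act redundantly in ES cells, changed in opposite directions.

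Among the other naive genes that fell, Gbx2, a homeobox factor induced by LIF, had 18.8 and 16 CPM in Msx1-negative against 77.8 and 77.1 CPM in ES-labelled libraries (log2 -2.15 ± 0.095 SE). Klf5 fell by 0.94, Tfcp2l1 by 0.71, Zfp42 by 0.47 and Esrrb by 0.32 on the log2 scale. Those that rose included Fbxo15, an F-box gene used as an ES cell marker, with 95.4 and 101 CPM in Msx1-negative and 38.7 and 36.2 CPM in ES-labelled libraries (log2 1.39 ± 0.136 SE). Dppa3, a maternal and germline factor of naive cells, had 16.2 and 19.7 CPM in Msx1-negative and 10 and 8.86 CPM in ES-labelled libraries (log2 0.92 ± 0.14 SE). Tbx3 was not called, with 282 and 280 CPM in Msx1-negative and 314 and 310 CPM in ES-labelled libraries. Of the 20 naive genes, 19 were higher than in Msx1-positive cells and 1, Stat3, was lower.

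**Figure D2:**
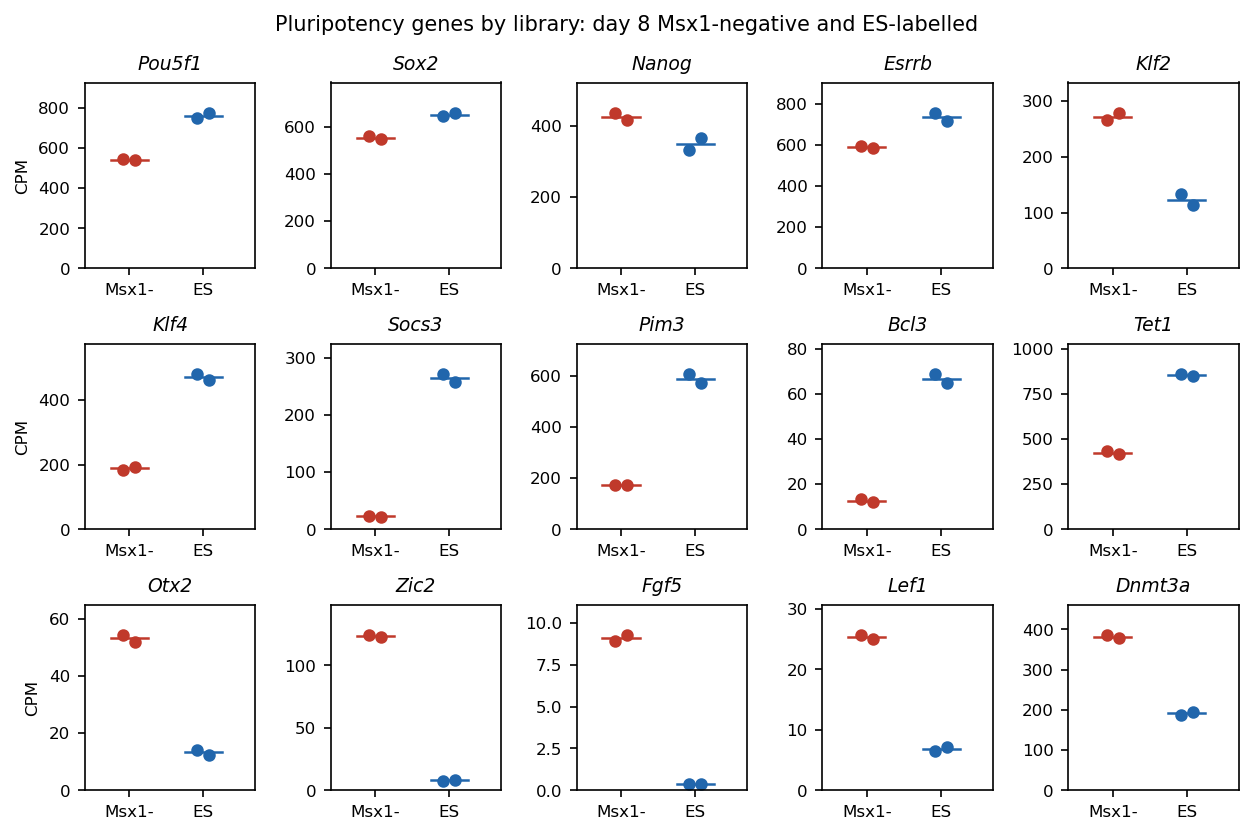
CPM in each library (points) and group mean (bars) of 15 pluripotency genes in day 8 Msx1-negative cells (left of each panel) and ES-labelled libraries (right), 2 libraries each, with each vertical axis starting at 0. Sox2 and Esrrb differ little, Socs3, Bcl3, Pim3 and Klf4 are lower, and Klf2, Otx2, Zic2, Fgf5, Lef1 and Dnmt3a are higher in Msx1-negative cells.

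Genes of the LIF and STAT3 response fell as a group. Of 13, 10 fell, 1 rose and 2 were not called, the median log2 change was -1.15, and 8 fell by at least 1. Socs3, the feedback inhibitor of the LIF receptor complex (chromosome 11, 117966079 to 117970047, minus strand, GRCm38), had 23.7 and 22.2 CPM in Msx1-negative cells, against 271 and 258 CPM in ES-labelled libraries. With groups far apart, it was 11.5-fold lower (log2 -3.53 ± 0.064 SE, adjusted p = 2.3e-16), the largest fall among the genes eligible to be named. In Msx1-positive cells of the same day it stood at 30.7 and 30.3 CPM.

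The sequence upstream of the RefSeq start of Socs3 is shown for 2 reasons. The gene fell furthest among those eligible to be named, and STAT factors bind the palindrome TTCNNNGAA. The 250 bases before its RefSeq start, read 5′ to 3′ on the minus strand of GRCm38.p6 (chr11:117969367-117969616), hold a match that begins 154 bases upstream of that start, in capitals. The RefSeq start lies inside the gene span given above from the other annotation, so the 2 annotations place the start of Socs3 differently. The whole window lies inside that span too, so by the other annotation the match is within the gene and not upstream of it.
Socs3: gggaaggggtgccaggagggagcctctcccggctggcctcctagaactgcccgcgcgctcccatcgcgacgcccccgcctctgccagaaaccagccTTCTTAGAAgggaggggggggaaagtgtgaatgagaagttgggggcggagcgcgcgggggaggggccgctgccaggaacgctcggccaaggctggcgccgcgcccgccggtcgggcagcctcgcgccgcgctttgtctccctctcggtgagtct
The motif, picked after these values were known, reads the same on both strands. It occurred in 7.02% of 32851 RefSeq promoter windows of that length and in 1 of 12 LIF and STAT3 genes with a window. The match is a feature of the sequence and does not by itself mark a bound site.

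The other falling members included further known LIF targets. Bcl3, an NF-κB cofactor, had 13.3 and 12.3 CPM in Msx1-negative against 68.6 and 65 CPM in ES-labelled libraries (log2 -2.39 ± 0.092 SE, adjusted p = 4.06e-12). Pim3, a serine/threonine kinase, had 173 and 174 CPM in Msx1-negative against 604 and 571 CPM in ES-labelled libraries (log2 -1.76 ± 0.067 SE). Both genes had groups that did not overlap. Stat3 itself had 76.1 and 76.2 CPM in Msx1-negative, 229 and 241 CPM in Msx1-positive and 172 and 166 CPM in ES-labelled libraries. It fell by 1.15 on the log2 scale against ES and was lower than in Msx1-positive cells by a log2 difference of -1.62 (adjusted p = 1.03e-13). Exons of Stat3 overlap those of Stat5a, and the counts do not separate strands. Lifr, the LIF receptor, fell by 0.67, while Il6st, which encodes gp130 and was picked after its values were seen, was not called (log2 0.09, adjusted p = 0.378).

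Formative and primed genes rose, although some stayed at low levels. Of 20 tested among 21 listed, 15 were higher, 2 lower and 3 not called, with a median log2 change of 1.02. Fgf5, the classical marker of post-implantation epiblast (chromosome 5, 98254184 to 98277030, plus strand), had 8.9 and 9.24 CPM in Msx1-negative cells, against 0.405 and 0.353 CPM in ES-labelled libraries. Zic2, a zinc-finger factor of formative cells (chromosome 14, 122475435 to 122479852, plus strand), had 124 and 123 CPM in Msx1-negative against 7.81 and 8.14 CPM in ES-labelled libraries. Both genes were far above ES in both Msx1-negative libraries, by 23.8-fold for Fgf5 (log2 4.57 ± 0.188 SE, adjusted p = 8.76e-12) and 15.5-fold for Zic2 (log2 3.95 ± 0.111 SE, adjusted p = 2.21e-13).

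Otx2, the homeobox factor that drives exit from the naive state, had 54.1 and 52 CPM in Msx1-negative against 14.1 and 12.4 CPM in ES-labelled libraries (log2 2.00 ± 0.112 SE); its exons overlap the antisense gene Otx2os1. Zic5, the neighbour of Zic2, rose 5.13-fold to 62.2 and 61.9 CPM in Msx1-negative cells, against 10.9 and 13.3 CPM in ES-labelled libraries. Lef1, a nuclear effector of WNT signalling, had 25.6 and 25.1 CPM in Msx1-negative against 6.52 and 7.14 CPM in ES-labelled libraries (log2 1.90 ± 0.129 SE). Pou3f1, which encodes OCT6, rose by 0.41 on the log2 scale, and the de novo methyltransferase Dnmt3b was not called, with 305 and 302 CPM in Msx1-negative and 300 and 286 CPM in ES-labelled libraries.

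Several formative genes were also higher than in the Msx1-positive fraction. The log2 difference from Msx1-positive cells was 1.53 for Otx2, 1.95 for Zic2, 1.79 for Zic5 and 2.06 for Lef1, each with an adjusted p of 1.44e-09 or smaller. Fgf5 did not pass that test, at 7.96 and 7.86 CPM in Msx1-positive cells (log2 difference 0.20 ± 0.131 SE, adjusted p = 0.224). Of the 20, 10 were higher in Msx1-negative than in Msx1-positive cells, 6 lower and 4 not called.

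Genes of the NODAL pathway, which primes the epiblast for germ layers, changed modestly. Lefty1, a NODAL inhibitor and target, had 167 and 180 CPM in Msx1-negative against 96.4 and 75.7 CPM in ES-labelled libraries (log2 1.01 ± 0.086 SE). Lefty2 rose by 0.65 and Nodal by 0.45. Across that list, 8 of 13 genes rose and 2 fell. The primitive streak factor Eomes rose to 16.9 and 18.3 CPM in Msx1-negative cells, against 7.12 and 7.84 CPM in ES-labelled libraries (log2 1.23 ± 0.121 SE), but the streak genes T and Mixl1 were not called and stayed under 1 CPM in both groups. Of 16 primitive streak and mesoderm genes, 10 rose, 1 fell and 5 were not called, yet 11 of the 16 averaged under 1 CPM in ES-labelled libraries and 7 in Msx1-negative cells.

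BMP and FGF feedback genes split. Id1, a BMP-induced inhibitor of bHLH factors (chromosome 2, 152736251 to 152737410, plus strand), had 10 and 11 CPM in Msx1-negative cells, 76.8 and 75.8 CPM in Msx1-positive cells and 95.8 and 88 CPM in ES-labelled libraries. It was 8.77-fold lower than in ES (log2 -3.13 ± 0.087 SE, adjusted p = 5.2e-14) and also lower than in Msx1-positive cells (log2 difference -2.86, adjusted p = 1.96e-14). Its relative Id3 had 44.9 and 49.9 CPM in Msx1-negative against 20.1 and 16.5 CPM in ES-labelled libraries and rose (log2 1.38 ± 0.092 SE). Id4 rose as well, with 17.3 and 18.1 CPM in Msx1-negative against 4.51 and 5.45 CPM in ES-labelled libraries (log2 1.83 ± 0.116 SE). The ligand Bmp4 fell to 13.7 and 12.3 CPM in Msx1-negative cells, against 45.7 and 41.4 CPM in ES-labelled libraries (log2 -1.74 ± 0.09 SE), while Bmp7 rose by 1.17. In the list of 19 BMP and Id genes, 12 rose, 4 fell and 3 were not called.

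Among the targets of FGF and ERK signalling, Spry4, a feedback inhibitor, had 110 and 103 CPM in Msx1-negative against 434 and 404 CPM in ES-labelled libraries (log2 -1.98 ± 0.073 SE, adjusted p = 2.38e-12). The ETS factor Etv4 fell to 147 and 143 CPM in Msx1-negative cells, against 335 and 322 CPM in ES-labelled libraries (2.27-fold lower, adjusted p = 8.5e-11). The ERK phosphatase Dusp4 rose to 98.1 and 105 CPM in Msx1-negative cells, against 41.3 and 38.5 CPM in ES-labelled libraries (log2 1.35 ± 0.083 SE). The receptor Fgfr2 rose 4.88-fold, to 24.2 and 22.3 CPM in Msx1-negative cells, against 5.25 and 4.27 CPM in ES-labelled libraries. Counted over 17 genes, 6 rose, 7 fell and 4 were not called, so the list had no common direction.

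Genes of primitive and visceral endoderm, the extra-embryonic layer that lines embryoid bodies, rose together. Of 27 tested among 28 listed, 23 rose, 1 fell and 3 were not called, 18 rose by at least 1, and the median log2 change was 1.81. Summed over the list, the level was 3190 and 3260 CPM in Msx1-negative against 2440 and 2370 CPM in ES-labelled libraries. Cubn, an endocytic receptor of visceral endoderm (chromosome 2, 13276338 to 13491813, minus strand), had 70.8 and 73.5 CPM in Msx1-negative cells, against 0.907 and 0.706 CPM in ES-labelled libraries. That is an 89.2-fold rise with no overlap (log2 6.48 ± 0.185 SE, adjusted p = 1.14e-10).

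The transcription factors of that layer rose to lower levels. Gata6 had 11.6 and 12.2 CPM in Msx1-negative against 0.675 and 0.784 CPM in ES-labelled libraries (log2 4.02 ± 0.136 SE). Gata4 had 11.3 and 13 CPM in Msx1-negative against 1.52 and 1.25 CPM in ES-labelled libraries (log2 3.13 ± 0.123 SE). Dab2, an endocytic adaptor that works with cubilin and megalin, had 41.2 and 38.3 CPM in Msx1-negative against 1.58 and 1.39 CPM in ES-labelled libraries (log2 4.74 ± 0.096 SE). Srgn, which encodes a proteoglycan core protein of parietal endoderm and blood cells, had 10.8 and 11 CPM in Msx1-negative against 0 and 0.0392 CPM in ES-labelled libraries, a ratio of 560 (95% exact counting interval 155 to 4630).

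Markers of mature visceral endoderm stayed low. The plasma proteins Afp and Apoa1 were under 1 CPM in both Msx1-negative libraries. The carrier protein Ttr had 0.843 and 0.924 CPM in Msx1-negative and no count in ES-labelled libraries, at least 30.2-fold higher when the ES-labelled pair is given a floor of 3 counts in sum. Basement membrane collagen Col4a1 rose to 183 and 184 CPM in Msx1-negative cells, against 73.2 and 76.1 CPM in ES-labelled libraries (log2 1.30 ± 0.065 SE). The Msx1-negative libraries of day 16 held more of these RNAs, a difference in time that was not tested. Cubn stood at 70.8 and 73.5 CPM on day 8 and 215 and 233 CPM on day 16, and Gata4 at 11.3 and 13 CPM on day 8 and 163 and 165 CPM on day 16.

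Set against Msx1-positive cells of the same day, 14 of the 27 endoderm genes were higher, 9 lower and 4 not called. Cubn was higher in Msx1-negative cells (log2 difference 2.57, adjusted p = 2.81e-09), with 10.5 and 13.7 CPM in Msx1-positive libraries. For Dab2 the log2 difference was 0.04 (adjusted p = 0.638), and for Gata4 it was -0.78 (adjusted p = 4.13e-07). The Msx1-negative and Msx1-positive fractions thus did not differ in 1 direction over this list.

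Trophectoderm genes, which mark the placental lineage, rose in 10 of 13 tested members, with 1 lower and 2 not called and a median log2 change of 2.56. Plac1, a placental gene on the X chromosome (53069995 to 53240111, minus strand), had 12.1 and 12.8 CPM in Msx1-negative cells and no count in either ES-labelled library, at least 426-fold higher. Msx1-positive cells had 4.69 and 3.78 CPM of Plac1, below Msx1-negative cells by a log2 difference of 1.56 (adjusted p = 1.09e-07). Hand1, a bHLH factor of trophoblast and extra-embryonic mesoderm, rose to 18.2 and 19.5 CPM in Msx1-negative cells, against 0.675 and 0.725 CPM in ES-labelled libraries. Krt7, a simple-epithelium keratin, rose 14.6-fold to 40.7 and 40.4 CPM in Msx1-negative cells, against 3.14 and 2.41 CPM in ES-labelled libraries. Cdx2, a defining factor of trophectoderm, had only 2.45 and 2.59 CPM in Msx1-negative against 0.424 and 0.274 CPM in ES-labelled libraries (log2 2.84 ± 0.271 SE). Gata3 had 4.47 and 3.46 CPM in Msx1-negative and 0.116 and 0.157 CPM in ES-labelled libraries (log2 4.85 ± 0.259 SE).

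Epithelial adhesion genes fell while simple-epithelium keratins rose. In that list of 20, 13 fell, 3 rose and 4 were not called, and the median log2 change was -0.40; the 3 that rose were Krt8, Krt18 and Krt19. Krt8, a keratin of simple epithelia, had 159 and 162 CPM in Msx1-negative against 13.8 and 14.3 CPM in ES-labelled libraries (log2 3.52 ± 0.059 SE, adjusted p = 1.04e-16). Its partner Krt18 had 104 and 114 CPM in Msx1-negative against 13.5 and 14.8 CPM in ES-labelled libraries (log2 2.94 ± 0.084 SE). E-cadherin, encoded by Cdh1, fell to 385 and 386 CPM in Msx1-negative cells, against 588 and 567 CPM in ES-labelled libraries (log2 -0.58 ± 0.06 SE). The tight-junction gene Cldn6 fell by 1.22, and Crb3, of the apical Crumbs complex, by 1.69.

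Endothelial markers did not move as a set. Cdh5, which encodes VE-cadherin, rose 87.8-fold to 20.8 and 18.8 CPM in Msx1-negative cells, against 0.174 and 0.274 CPM in ES-labelled libraries (log2 6.46 ± 0.173 SE, adjusted p = 2.78e-14). It was also higher than in Msx1-positive cells, which had 5.82 and 5.83 CPM (log2 difference 1.77). The VEGF receptor Kdr had 2.5 and 2.77 CPM in Msx1-negative against 1.81 and 1.53 CPM in ES-labelled libraries, and its call did not survive leaving out Msx1-negative replicate 2 (adjusted p = 0.0693) or ES-labelled replicate 2 (adjusted p = 0.0944). Of 14 endothelial genes 6 rose, 2 fell and 6 were not called. Tie1 rose by 3.66 and Flt1 by 1.85 on the log2 scale, and the 2 that fell were Vwf, by 0.97, and Esam, by 0.84.

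Genes strongly expressed in the Msx1-positive fraction and nearly absent from ES-labelled libraries mostly stood at a small part of the Msx1-positive level. There were 47 genes with at least 50 CPM in Msx1-positive and under 1 CPM in ES-labelled libraries. For these the excess over ES in Msx1-negative cells was a median of 3.24% of the excess in Msx1-positive cells, with quartiles of 1.68% and 4.67%. It was under 10% for 43 of the 47. Choosing genes by a high Msx1-positive level itself favours low percentages, so these values describe the 47 genes only. The mesenchymal homeobox gene Prrx1 had 0.843 and 0.554 CPM in Msx1-negative, 175 and 176 CPM in Msx1-positive and 0 CPM in both ES-labelled libraries. The collagen gene Col1a2 had 28.1 and 27.3 CPM in Msx1-negative, 1060 and 1170 CPM in Msx1-positive and 0.386 and 0.372 CPM in ES-labelled libraries. Col1a2 therefore counts among the 15 highest rises over ES (log2 6.19 ± 0.13 SE) while it was far below the Msx1-positive level (log2 difference -5.33).

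Dlx1 and Pdgfra, further members of the mesenchymal lists, lay between the Msx1-positive and ES-labelled libraries. Dlx1, a neighbour of Dlx2 with which it shares enhancers, had 3.08 and 3.44 CPM in Msx1-negative, 103 and 115 CPM in Msx1-positive and 0.0772 and 0.0784 CPM in ES-labelled libraries. Pdgfra, a growth factor receptor of mesenchyme and of primitive endoderm, had 17.9 and 16.8 CPM in Msx1-negative, 120 and 129 CPM in Msx1-positive and 0.791 and 0.647 CPM in ES-labelled libraries. At 13.4% of the Msx1-positive excess, Pdgfra is among the 4 of the 47 genes at 10% or more. Among 33 ectomesenchyme and mesenchymal factors, 19 rose over ES, 1 fell and 13 were not called, with a median log2 change of 1.90, and 32 were lower than in Msx1-positive cells. Among 26 mesenchymal matrix genes, 22 rose, 0 fell and 4 were not called, with a median of 1.60, or 1.35 with genes at 0 in a group set to their bound, and 24 were lower than in Msx1-positive cells. The summed level of the matrix list was 2740 and 2700 CPM in Msx1-negative, 6230 and 6870 CPM in Msx1-positive and 2700 and 2520 CPM in ES-labelled libraries. What part Msx1-positive cells left in the negative gate have in these rises was not tested.

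**Figure D3:**
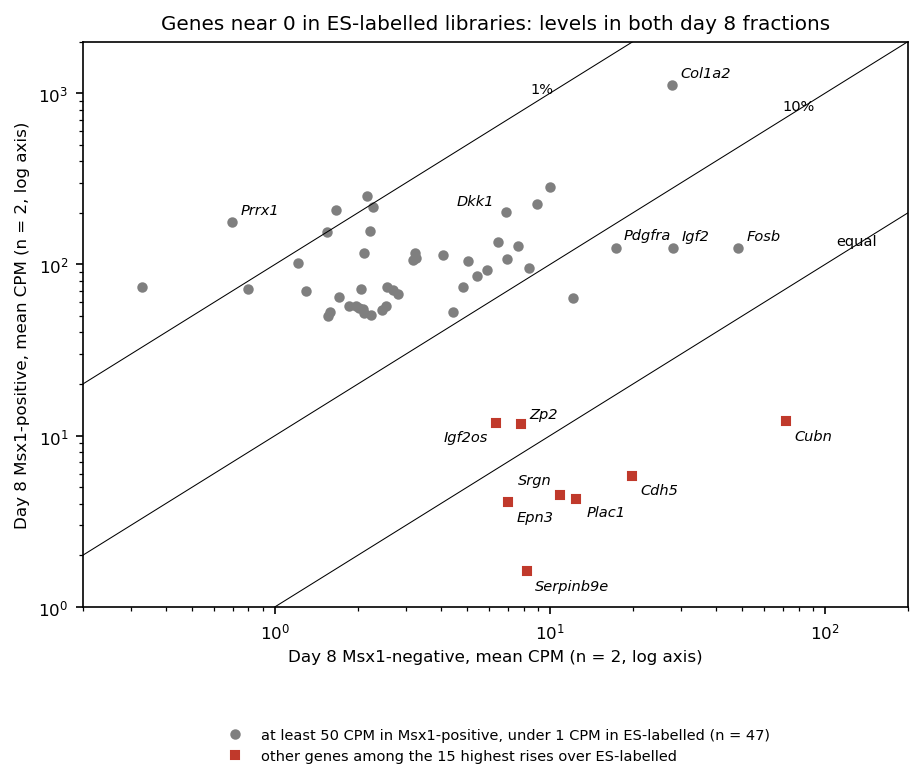
Mean CPM in day 8 Msx1-negative (horizontal axis) and Msx1-positive cells (vertical axis), 2 libraries each, on log axes, with lines for Msx1-negative levels equal to, 10% of and 1% of the Msx1-positive level. Grey points are the 47 genes with at least 50 CPM in Msx1-positive and under 1 CPM in ES-labelled libraries and mostly lie between the 1% and 10% lines, while the red squares, the other genes among the 15 highest rises over ES, include Cubn, Cdh5, Plac1, Srgn, Epn3 and Serpinb9e to the right of equality.

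A rise over ES did not by itself make a gene higher in the Msx1-negative than in the Msx1-positive fraction. Of the 1879 genes higher by a log2 change of at least 1, 282 were higher than in Msx1-positive cells, 1044 were lower and 553 were not called. Among the 15 highest rises, the keratin genes Krt25 and Krt27, the WNT inhibitor Dkk1 and the orphan receptor Gpr50 belonged to the lower class. Col1a2, Fosb, Igf2, Igf2os and Zp2 belonged to it as well, while Plac1, Srgn, Cubn, Cdh5 and Epn3 were in the higher class. Dkk1 had 6.85 and 6.98 CPM in Msx1-negative, 203 and 202 CPM in Msx1-positive and 0.0772 and 0 CPM in ES-labelled libraries. Serpinb9e, a serine protease inhibitor gene, belonged to the higher class, with 8.02 and 8.43 CPM in Msx1-negative, 1.77 and 1.47 CPM in Msx1-positive and 0 and 0.0392 CPM in ES-labelled libraries; close relatives of this gene may share its reads.

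Markers of other cell types changed in both directions. Of 15 blood genes 3 rose, 2 fell and 10 were not called. The 33.3% called in either direction is close to the 33.6% over all genes tested. That share was 76.9% in the fibroblast list, 75% in the neural plate list and 47.4% in the Hox list described below. Runx1, a factor of blood and of other tissues, had 4.29 and 5.23 CPM in Msx1-negative, 41.8 and 48.9 CPM in Msx1-positive and 0.752 and 0.843 CPM in ES-labelled libraries (log2 against ES 2.57 ± 0.163 SE). Lmo2, a cofactor of blood and endothelium, rose by 1.02 on the log2 scale, and the embryonic globin gene Hbb-bh1 had 0.13 and 0.259 CPM in Msx1-negative and no count in ES-labelled libraries. The erythroid factor Gata1 fell by 1.81 on the log2 scale. Ptprc, which marks white blood cells, had no count in Msx1-negative and 0.154 and 0.098 CPM in ES-labelled libraries. Its fall was not called with the replicate block (adjusted p = 0.0537), nor with any 1 of the 4 libraries compared left out. Of the fibroblast markers that would mark feeder cells, Thy1 fell by 0.67 on the log2 scale, and Dcn and Lum stayed under 1 CPM in Msx1-negative and at 0 CPM in ES-labelled libraries. The fibroblast list rose in 9 of 13 members and fell in 1, and its summed level was 104 and 106 CPM in Msx1-negative, 2020 and 2250 CPM in Msx1-positive and 69 and 60.5 CPM in ES-labelled libraries. Neural plate and progenitor genes rose in 15 of 24 and fell in 3: Sox1, an early neural factor, had 28.7 and 32 CPM in Msx1-negative against 9.61 and 7.55 CPM in ES-labelled libraries (log2 1.82 ± 0.123 SE), but Pax6 stayed under 2 CPM and Nes, which encodes nestin, fell by 0.62. The neuronal markers Tubb3 and Dcx were not called, but of 17 neuronal genes tested 4 rose, 6 fell and 7 were not called. Of 38 Hox genes, 17 rose, 1 fell and 20 were not called, and 32 of the 38 averaged under 1 CPM in Msx1-negative cells.

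**Figure D4:**
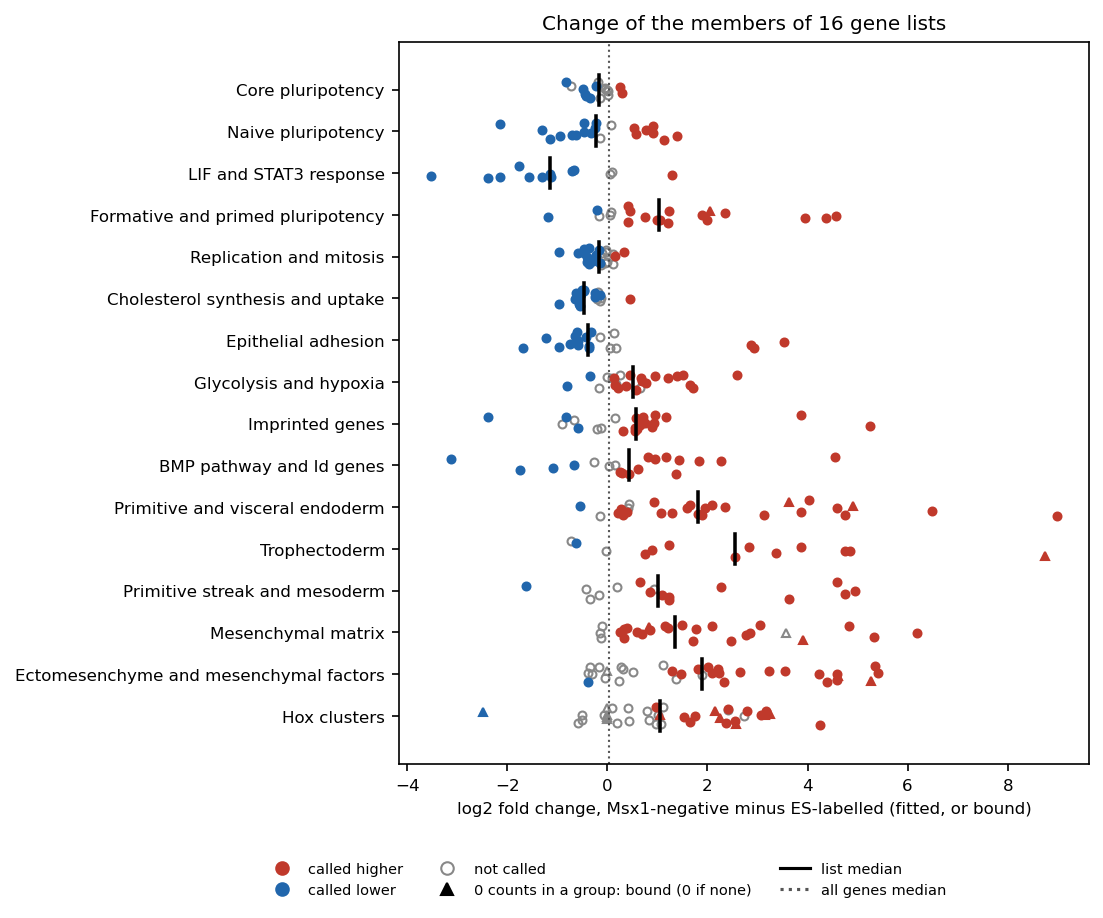
Fitted log2 change, Msx1-negative minus ES-labelled, of each tested member of 16 gene lists, with called genes filled (red higher, blue lower), genes not called open, and triangles for genes with 0 counts in a group, drawn at the bound that a floor of 3 counts gives. Black bars are list medians and the dotted line is the median of all genes tested (0.03); the LIF and STAT3 list lies to the left, and the primitive endoderm, trophectoderm and mesenchymal lists lie to the right.

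Imprinted genes, expressed from 1 parental allele, rose in 14 of 22 tested members, with 3 lower, 5 not called and a median log2 change of 0.57. The noncoding RNA H19 (chromosome 7, 142575529 to 142578143, minus strand) had 135 and 140 CPM in Msx1-negative against 7.72 and 11.2 CPM in ES-labelled libraries (log2 3.87 ± 0.114 SE, adjusted p = 4.79e-11). Its neighbour Igf2, a fetal growth factor, had 27.3 and 28.8 CPM in Msx1-negative against 0.482 and 1 CPM in ES-labelled libraries (log2 5.24 ± 0.309 SE). Exons of Igf2 and Igf2os overlap on opposite strands, so that reads of the 2 are not separated. Phlda2, an inhibitor of placental growth from the neighbouring imprinted cluster on chromosome 7, fell to 11.7 and 10.5 CPM in Msx1-negative cells, against 59.6 and 56.2 CPM in ES-labelled libraries (log2 -2.38 ± 0.116 SE). H19 and Igf2 were lower than in Msx1-positive cells, which had 511 and 500 CPM of H19, while Phlda2 did not differ by that test (adjusted p = 0.119).

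Genes of the 2-cell-like state, a rare state of ES cultures that resembles the 2-cell embryo, averaged under 1 CPM in ES-labelled libraries in 15 of the 16 tested members, of 19 listed. The exception was Eif1a, which encodes a translation initiation factor, with 191 and 184 CPM in Msx1-negative against 221 and 227 CPM in ES-labelled libraries (log2 -0.25 ± 0.053 SE). Of the 16 tested, 15 rose and 1, Eif1a, fell; the median log2 change was 4.93, and with the 6 genes at 0 in ES set to their bound it was 4.33. Zscan4d, a marker of the state, had 2.04 and 1.37 CPM in Msx1-negative against 0.193 and 0.0392 CPM in ES-labelled libraries (log2 3.85 ± 0.435 SE). Tmem92 had 1.67 and 2.05 CPM in Msx1-negative and no count in ES-labelled libraries, at least 63.3-fold higher. The Zscan4 genes are near-identical copies, and how the authors' counting split reads among them is not given in the sources used here. In this list 1 gene was higher than in Msx1-positive cells and 11 were lower, so the rise was not particular to the Msx1-negative fraction.

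Metabolic genes changed by list. Genes of glycolysis and the hypoxia response rose in 16 of 24, with 2 lower and 6 not called and a median log2 change of 0.51. Slc2a3, the glucose transporter GLUT3 (chromosome 6, 122727809 to 122801640, minus strand), had 1910 and 1890 CPM in Msx1-negative against 717 and 721 CPM in ES-labelled libraries (log2 1.40 ± 0.053 SE, adjusted p = 3.43e-12). The hypoxia-induced prolyl hydroxylase Egln3 rose to 49 and 49.5 CPM in Msx1-negative cells, against 15.3 and 16 CPM in ES-labelled libraries (log2 1.65 ± 0.108 SE). Ndrg1 rose by 1.72 and P4ha1 by 1.52, whereas hexokinase 2, encoded by Hk2, fell by 0.81 and lactate dehydrogenase Ldha by 0.35. Cholesterol genes fell in 13 of 18, 1 rose, and the median was -0.47.

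Cell cycle genes fell slightly, with 13 of 25 replication and mitosis genes lower, 2 higher and a median log2 change of -0.16. The largest change there was that of cyclin E1, encoded by Ccne1, with 162 and 163 CPM in Msx1-negative against 315 and 320 CPM in ES-labelled libraries (log2 -0.96 ± 0.054 SE). The proliferation marker Mki67 was not called (log2 -0.16, adjusted p = 0.109). Cyclin D2, encoded by Ccnd2, rose 5.56-fold to 14.6 and 13.9 CPM in Msx1-negative cells, against 2.66 and 2.47 CPM in ES-labelled libraries. The apoptosis gene Pmaip1, a p53 target, rose to 372 and 358 CPM in Msx1-negative cells, against 142 and 157 CPM in ES-labelled libraries (log2 1.29 ± 0.068 SE).

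Enzymes of DNA methylation changed in both directions. The de novo methyltransferase Dnmt3a rose 1.99-fold to 385 and 378 CPM in Msx1-negative cells, against 188 and 195 CPM in ES-labelled libraries (log2 0.99 ± 0.066 SE, adjusted p = 3.85e-09). Tet1, which oxidises methylcytosine, fell 2.01-fold to 433 and 416 CPM in Msx1-negative cells, against 858 and 847 CPM in ES-labelled libraries (log2 -1.01 ± 0.069 SE). The maintenance enzyme Dnmt1 was not called (adjusted p = 0.0674). Over the 11 genes of this list 3 rose, 4 fell and 4 were not called.

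Immediate early genes changed in both directions. Fosb, an AP-1 subunit (chromosome 7, 19302696 to 19310051, minus strand), had 49.1 and 47.1 CPM in Msx1-negative against 0.714 and 0.745 CPM in ES-labelled libraries (log2 6.04 ± 0.102 SE, adjusted p = 1.04e-16). Fos rose to 51.4 and 53 CPM in Msx1-negative cells, against 8.72 and 5.47 CPM in ES-labelled libraries (log2 2.88 ± 0.16 SE), and Jun rose by 1.29. Junb, of the same AP-1 family, fell to 20.8 and 21 CPM in Msx1-negative cells, against 62.4 and 61.4 CPM in ES-labelled libraries (log2 -1.57 ± 0.069 SE), and Egr1 fell by 0.81. Of 15 immediate early genes 6 rose, 7 fell and 2 were not called. Msx1-negative cells were sorted and ES-labelled cells are not described as sorted, and the part of that handling was not tested.

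Lmna, which encodes lamins A and C (chromosome 3, 88480147 to 88509956, minus strand), had 24 and 27.6 CPM in Msx1-negative, 111 and 125 CPM in Msx1-positive and 91.6 and 87.1 CPM in ES-labelled libraries. The groups did not overlap, and it was 3.47-fold lower than in ES (log2 -1.80 ± 0.075 SE, adjusted p = 9.61e-12). Of 17 genes of the nuclear lamina and of LAP2 partners, 5 rose, 4 fell and 8 were not called, with a median log2 change of 0.06. The 52.9% called in either direction stands beside 33.6% over all genes tested. Among tested genes over 1 CPM, 23.3% were called higher and 21.3% lower. Tmpo, which encodes the LAP2 proteins that bind lamins, was not called (log2 0.06, adjusted p = 0.43). Hmgn5, a nucleosome-binding protein, rose to 64.1 and 66.9 CPM in Msx1-negative cells, against 20.6 and 24.4 CPM in ES-labelled libraries (log2 1.54 ± 0.086 SE).

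Beyond the lists, 211 genes met the criteria to be named among falls and 432 among rises, and the 15 furthest of each were examined. After Socs3, the falls included Sfn, which encodes 14-3-3 sigma, with 38.1 and 38.5 CPM in Msx1-negative against 217 and 215 CPM in ES-labelled libraries (log2 -2.50 ± 0.066 SE, adjusted p = 2.17e-14). Pcolce, an enhancer of procollagen processing, had 27.1 and 27.8 CPM in Msx1-negative, 204 and 202 CPM in Msx1-positive and 148 CPM in both ES-labelled libraries (log2 against ES -2.43 ± 0.055 SE). The glutathione peroxidase Gpx2 had 3.32 and 2.38 CPM in Msx1-negative against 22.6 and 22 CPM in ES-labelled libraries, and the clathrin light chain Cltb had 15.3 and 16.5 CPM in Msx1-negative against 80.6 and 86.1 CPM in ES-labelled libraries. The epidermal transglutaminase Tgm1 fell by 2.48. None of these overlapped between the groups, which the choice of named genes required.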

How the data were processed

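RNA sequencing of 10 mouse libraries was analysed from 1 table of raw read counts per gene symbol, as the authors deposited it. HISAT2 2.1.0, fastp 0.20.0, the genome build GRCm38 and DESeq2 1.18.1 are listed in the submitters' processing notes; no counting program is given there. Per the labels' protocols, libraries were made with a NEBNext Ultra kit, which does not mark strand. A second table, of day 2, was not used here.

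Genes were kept by filterByExpr over the groups (22504 of 54114 symbols), scaled by TMM and tested with edgeR 4.0.16 in R 4.3.3 (glmQLFit with robust estimation and 5 group means, then glmQLFTest, two-sided), with Benjamini-Hochberg adjustment over all genes tested. Calls were made at adjusted p values below 0.05, and separately with an absolute log2 change of at least 1. The comparison with Msx1-positive cells is a contrast of the same fit and tests the difference between the 2 fractions' changes from the shared ES-labelled libraries. Standard errors are the log2 change over the root of F, and are too small for genes of few counts. With 2 libraries against 2, an exact permutation test of a single gene cannot go below p = 0.333, so none was used. CPM use TMM-scaled totals. Folds against 0 counts are bounds at a floor of 3 counts over the group; ratios on 1 to 3 counts carry 95% exact intervals. Intervals and floors cover counting error only. The steps were tested on simulated counts.

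Replicates differed by more than sampling noise (chi-square per degree of freedom 5.79 in Msx1-negative and 7.72 in ES-labelled libraries). Genes were named by 3 rules: key genes of 44 lists, the 15 furthest rises and falls with at least 5 CPM in the higher group and no overlap, and up to 4 further called members of a list. Symbols of predicted genes and clones were left out of the second rule. The libraries, lists and rules were chosen with earlier results of these data known. Coordinates are from GENCODE vM21 and promoter sequence from RefSeq, both on GRCm38. Alternatives were RLE scaling, library size alone, other filters, only the 4 libraries compared, a replicate block, DESeq2 1.42.0 and leaving out each replicate.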

Additional observations from a re-analysis of the deposited data

Results flagged for a closer look

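The Msx1-negative and Msx1-positive fractions of day 8, set against the same ES-labelled libraries, changed differently in many genes: 12117 of the 22504 genes tested differed between them (53.8%) by the contrast Msx1-negative minus Msx1-positive. The genes that the 3 naming rules allowed were searched for log2 changes of at least 1 against ES in Msx1-negative cells. Among them, 11 met this, were called in the opposite direction in Msx1-positive cells and differed between the fractions. Of these, 5 were above ES in Msx1-negative cells. Klf2 was at 49.2 and 52.4 CPM in Msx1-positive cells, a log2 difference of 2.42 between the fractions. The other 4 were Fbxo15, with a difference of 2.23, Stra8, with 2.2, and the pluripotency-associated transcripts Platr11, with 3.4, and Platr7, with 2.93. The remaining 6 were below ES in Msx1-negative cells. Junb was at 95.3 and 105 CPM in Msx1-positive cells, a log2 difference of -2.26. Lmna differed by -2.2, Pcolce by -2.88, Stat3 by -1.62, Chrd by -1.59 and Nlrc5 by -1.87. For all 11, both libraries of each fraction lay on the same side of both ES-labelled libraries. The choice of these genes by their calls makes such a separation likely, so it is no further result.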

How the results depend on the processing

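Leaving out 1 replicate of either group gave 3301 to 3576 genes called higher, 2176 to 2396 called lower, 1580 to 1750 higher by at least 1 and 459 to 485 lower by at least 1; without Msx1-negative replicate 1 the count called lower was 2176, over 1.5 times fewer than 3271. The other alternatives gave 4080 to 4680 higher and 2875 to 3899 lower. The replicate block gave 4080 higher and 3112 lower. Deviations of same-numbered libraries correlated at 0.00164 between ES-labelled and Msx1-negative libraries and from -0.0465 to 0.117 over all pairs of groups. Counting noise in low genes draws such values toward 0, so they do not settle whether replicate numbers pair the libraries. Gene by gene, the alternatives were followed against ES for 171 genes: the key genes of the lists and the furthest rises and falls. Genes named only as further called members of a list were not followed in this way. Of the 171, 136 were called against ES. Among these 136, 116 kept their call under every alternative run, 20 lost it under at least 1 and 0 reversed. Those that lost it included Sox2, Nanog, Dppa5a, Kdr, Apoa1 and Ptprc (adjusted p = 0.0537 with the replicate block). With library totals as the only scaling, the median log2 difference from Msx1-positive cells was -0.212, against -0.0585 with TMM, and the calls split into 4057 higher and 7981 lower, against 5415 and 6702; there Etv4 (-0.001762), Hmgcs1 (-0.0297) and Ccnd1 (-0.001176) turned negative, and none of these 3 was called. Depth limits the low genes: 8182 of the genes tested averaged under 1 CPM in Msx1-negative cells, and their folds rest on few counts.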

Other observations

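Germline and maternal genes went both ways, with 5 of 20 higher, 5 lower and 10 not called. The 50% called in either direction stands beside 33.6% over all genes tested. Among tested genes over 1 CPM, 23.3% were called higher and 21.3% lower, so these counts lie near the general share. Stra8, a gene induced at entry into meiosis, had 28.7 and 28.4 CPM in Msx1-negative, 6.16 and 6.26 CPM in Msx1-positive and 9.51 and 11.1 CPM in ES-labelled libraries (log2 against ES 1.47 ± 0.106 SE). Dazl, an RNA-binding protein of germ cells, rose by 1.22. The egg coat genes Zp2 and Zp3 moved apart: Zp2 had 7.76 and 7.83 CPM in Msx1-negative against 0.0772 and 0.294 CPM in ES-labelled libraries, and Zp3 had 3.26 and 2.81 CPM in Msx1-negative against 11.2 and 10.4 CPM in ES-labelled libraries. Retinoic acid genes rose in 9 of 15, with 1 lower; Cyp26a1, which degrades retinoic acid, had 2.32 and 3.07 CPM in Msx1-negative against 0.135 and 0.392 CPM in ES-labelled libraries (log2 3.34 ± 0.283 SE).

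By chromosome, among 14740 tested genes over 1 CPM, 23.3% were called higher and 21.3% lower. On chromosome 6, 33% of 707 genes were higher and 14% lower, with a median log2 change of 0.112 beside -0.010 over all these genes. On chromosome 4, 19% were higher and 28.6% lower, with a median of -0.093. The chromosome 6 median against ES was 0.089 in Msx1-positive cells of day 8, beside -0.064 over all these genes. In Msx1-negative cells of day 16 it was 0.024, beside -0.079 over all these genes. The chromosome 4 median was -0.174 in Msx1-positive cells of day 8 and -0.27 in Msx1-negative cells of day 16. Genes are not replicates, and no test was made of these medians; the number of copies of each chromosome in these cells was not tested.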
